A study of Mus musculus with 24 samples.

Results

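The genes described here are 10 markers of glial reactivity and photoreceptor stress: Gfap, Edn2, Lif, Stat3, Socs3, Serpina3n, Cebpd, Osmr, C4b and Lcn2. They were taken by gene name, with earlier results of these data known, from the 56748 genes of the deposited count table, and all 10 were measured in all 24 libraries. The libraries came from 12 mice, each giving a neural retina and an eye cup (the retinal pigment epithelium, or RPE, with choroid and sclera), in 8 groups of 3. PRDM13-OE mice were C57BL/6J mice heterozygous for a knock-in at Rosa26, in which a reverse tetracycline transactivator is driven by the ubiquitous EF-1α promoter and an HA-tagged human PRDM13 by the inducible TRE3G promoter. Wildtype littermates lacked the construct. Mice of each genotype were left untreated or drank doxycycline (dox) at 2 mg/ml with 10% sucrose for 72 hours from postnatal day 28, so dox and sucrose water came together. The construct is not restricted to any retinal cell type and carries 1 copy, and expression without dox is possible in such systems. Mice of both sexes were used in the study. Human PRDM13 itself was not analysed here. Levels are given in CPM, read counts scaled to library size with edgeR's TMM factors within a tissue, and totals ran from 15825059 to 24908314 counts per library.

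When photoreceptors are injured, they and neighboring Müller glia release signals that set off a glial response. Lif, a cytokine of the IL-6 family, and Edn2, an endothelin made by stressed photoreceptors, are among the earliest of these signals. Cytokines of the family act through receptor chains paired with gp130, of which the oncostatin M receptor Osmr is one, and through JAK kinases they activate the transcription factor Stat3. Stat3 induces its own inhibitor Socs3 and the transcription factor Cebpd. Reactive glia then accumulate the intermediate filament Gfap, the protease inhibitor Serpina3n, the complement component C4b and the iron-siderophore binding lipocalin Lcn2.

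Sequence before the RefSeq start of 4 of the genes is shown because they stand for the steps of this pathway: a ligand, a feedback gene and both a structural and a secreted marker of reactive glia. The sequences are from RefSeq's promoter table on GRCm39, which held windows of 250 bases before the start for 8 of the 10 genes, and only stretches outside annotated exons, or short sites, are printed. For Gfap, Socs3 and Lcn2 the RefSeq start lies inside the deposited gene span, which begins farther upstream, so their stretches fall within that span. Capitals mark a match to the STAT element TTCNNNGAA, which reads the same on both strands, or to the C/EBP-type motif TTGCNNAA, searched on both strands and chosen after the expression values were known. The 2 motifs were found in no common window of these 8.
Gfap, minus strand, chr11:102788186-102788276: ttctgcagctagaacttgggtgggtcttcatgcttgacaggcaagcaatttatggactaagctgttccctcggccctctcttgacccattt
Edn2, plus strand, chr4:120018153-120018402: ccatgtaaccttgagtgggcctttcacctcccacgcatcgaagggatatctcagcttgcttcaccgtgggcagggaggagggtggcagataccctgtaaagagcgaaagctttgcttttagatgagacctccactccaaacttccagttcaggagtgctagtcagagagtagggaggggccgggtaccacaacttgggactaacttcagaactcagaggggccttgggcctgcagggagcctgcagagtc
Socs3, minus strand, chr11:117860328-117860356: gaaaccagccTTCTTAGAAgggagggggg
Lcn2, minus strand, chr2:32277950-32277977: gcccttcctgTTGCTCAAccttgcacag
The STAT element was present in 1 of the 8 windows, that of Socs3, at 146 to 154 bases before its RefSeq start, and in 7.02% of the 32851 windows in the table. The C/EBP-type motif was present in 1 of the 8, that of Lcn2, at 209 to 216 bases before its RefSeq start, and in 9.56% of all windows. These are letter matches only, and the libraries hold no binding data.

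Marker genes of other tissues differed between libraries and are given here because they touch the results below. The summed level of 13 lens crystallin genes was 11306 and 4705 CPM in the retinas of wildtype dox mice 1 and 2, 116 CPM in the third, and 3.55 to 28.7 CPM in PRDM13-OE dox retinas. The 5 red blood cell genes summed to 0.709 to 1.18 CPM in PRDM13-OE dox retinas and to 21.6 to 77.8 CPM in the other 9 retinas. Rod genes summed to 59432 to 66330 CPM in PRDM13-OE dox retinas and to 79127 to 86052 CPM in the other retinas. In the same order, cone genes summed to 910 to 991 and 1583 to 1821 CPM, and endothelial genes to 217 to 248 and 348 to 443 CPM. Fits with the lens crystallin level are given below, and the part of the other differences in the retinal results was not tested. In eye cups, rod genes ran from 3836 to 52935 CPM and 8 surface epithelium genes from 1229 to 37629 CPM, so marker levels of retina and of neighboring tissue differed widely between eye cups. The 10 RPE genes, which define the eye cup, summed to 7372 to 55708 CPM there and to 75.8 to 427 CPM in the retinas.

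Compared per unit of gene length, as deposited FPKM (fragments scaled to gene length and library size), Gfap and Stat3 were the most abundant of the 10 in the retina. Their medians over 12 retinas were 7.99 (6.53 to 11.1) and 6.81 (6.34 to 7.23) FPKM, ranges that overlap. Cebpd followed at a median of 4.56 FPKM, Serpina3n at 3.98, C4b at 2.29, Lcn2 at 1.58, Socs3 at 1.29, Edn2 at 1.15 and Osmr at 0.563, each with a range overlapping that of its neighbors. Lif, at 0.161 FPKM (0.0670 to 0.289), was the lowest, below the range of Osmr (0.457 to 0.747). In the eye cup the order changed: Gfap (median 132 FPKM, 23.7 to 387) and Serpina3n (90.3, 31.6 to 130) led, ahead of C4b at 19.3, Cebpd at 13.9, Stat3 at 9.69 and Osmr at 5.21 FPKM. Stat3 was the steadiest gene in the retina, where its highest CPM was 1.13 times its lowest, while Gfap in the eye cup spanned 16.0 times. Lif and Edn2 rested on few reads, 5 to 43 and 7 to 83 counts per library, which sets how finely their differences could be measured.

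**Figure D1:**
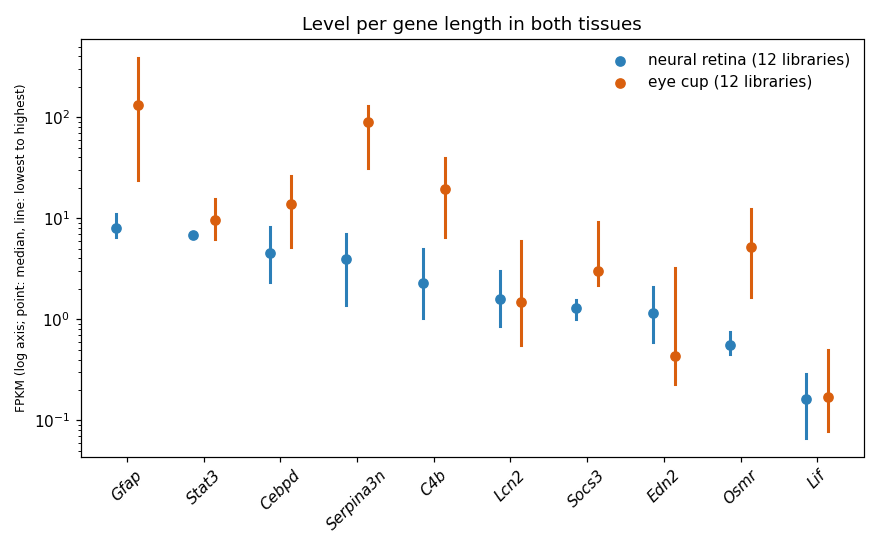
Deposited FPKM of each gene (log axis) in the 12 retinas and 12 eye cups, genes ordered by their retinal median, with the median as a point and the lowest to the highest library as a line. Gfap and Serpina3n stand far higher in the eye cups (medians 132 and 90.3 FPKM) than in the retinas (7.99 and 3.98), while the medians of Lcn2 lie at 1.58 FPKM in retinas and 1.47 in eye cups.

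Which of these genes differ when PRDM13 is switched on was addressed by comparing PRDM13-OE and wildtype retinas after dox. Cebpd and Lcn2 were higher in PRDM13-OE dox retinas, by 1.94-fold and 1.89-fold, and in neither did the groups overlap, as in 31.8% of all genes tested. For Cebpd, untreated PRDM13-OE retinas, at 18.2 to 22.4 CPM, were also above the 11.2 to 15.0 CPM of wildtype dox. The other 8 did not pass the test. Gfap, Stat3, Socs3 and Osmr, the filament, the transducer, its inhibitor and the receptor, differed by less than their spread between mice, with mean levels within 1.11-fold. By edgeR's quasi-likelihood test, 2 of the 10 genes passed an adjusted p of 0.05, both upward, where 12.5% of the 20560 genes tested passed and 5.01% passed upward. None also passed a fold of 2 (log2 change past 1), the study's threshold, which 2.41% of all genes did, while 3 of the 10 had an unadjusted p under 0.05 and DESeq2 passed 2, with 11.6% of all genes. Their median log2 change was -0.09, against 0.006 over all genes.

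The 2 ligands gave no difference that passed. Edn2 (ENSMUSG00000028635, chr4:120018403-120024557, plus strand) was measured at 1.30, 1.65 and 1.40 CPM in PRDM13-OE dox retinas and at 1.96, 1.77 and 1.48 CPM in wildtype dox retinas, values that overlap. Its log2 change was -0.26 (95% interval -0.82 to 0.29, adjusted p = 0.562). Lif (ENSMUSG00000034394, chr11:4207557-4222514, plus strand) ran from 0.322 to 1.00 CPM in PRDM13-OE dox retinas and from 0.483 to 1.06 CPM in wildtype ones. Lif had 6 to 18 counts per library, and the 95% interval of its log2 change was -1.56 to 0.57.

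Osmr, the receptor chain for oncostatin M (ENSMUSG00000022146, chr15:6843058-6904450, minus strand), ran from 6.13 to 8.39 CPM with PRDM13 induced and from 7.14 to 8.32 CPM in wildtype dox retinas. The groups overlapped and its log2 change was -0.15 (95% interval -0.49 to 0.18). Stat3 (ENSMUSG00000004040, chr11:100775924-100830366, minus strand) read 67.9, 75.9 and 70.9 CPM against 74.6, 70.0 and 68.8 CPM. Stat3 was the most tightly measured of the genes: its log2 change was 0.00 with a 95% interval of -0.13 to 0.14. RNA level does not report the phosphorylation through which Stat3 acts. The gene overlaps Stat5a on the opposite strand, as Cebpd overlaps Spidr and Socs3, Osmr and C4b overlap predicted genes, and whether reads were counted by strand is not given in the sources used here.

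Of the 2 Stat3-induced regulators, only Cebpd passed. Cebpd (ENSMUSG00000071637, chr16:15705150-15708895, plus strand) encodes C/EBP delta, a transcription factor of the acute phase response. Its level was 34.3, 20.3 and 25.6 CPM in PRDM13-OE dox retinas and 15.0, 15.0 and 11.2 CPM in wildtype dox retinas. All 3 induced retinas were above all 3 controls, with means of 26.7 ± 7.07 and 13.7 ± 2.22 CPM (SD, n = 3 each). The log2 change was 0.95 ± 0.17 (SE, 95% interval 0.58 to 1.32, adjusted p = 0.00328). The call was lost, with the same log2 change, under robust dispersions (adjusted p = 0.0647) and with the summed lens crystallin level as a covariate over all 12 retinas (adjusted p = 0.242). Crystallin itself went largely with genotype. It summed to 3.55 to 28.7 and 5.83 to 124 CPM in PRDM13-OE retinas with and without dox, and to 116 to 11306 and 192 to 888 CPM in wildtype ones. Fits with this covariate, here and below, therefore cannot separate it from genotype. Socs3 (ENSMUSG00000053113, chr11:117856905-117860873, minus strand), the inhibitor that ends Stat3 signaling, read 3.78, 4.61 and 3.55 CPM with PRDM13 induced. Wildtype dox retinas gave 4.03, 4.24 and 3.96 CPM, inside that range, and the log2 change was -0.04 (95% interval -0.43 to 0.35).

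Among the products of reactive glia, Lcn2 passed and Gfap did not. Lcn2 (ENSMUSG00000026822, chr2:32274645-32278264, minus strand), secreted by reactive glia and by neutrophils, stood at 8.80, 7.14 and 6.77 CPM in PRDM13-OE dox retinas and at 5.58, 3.17 and 3.19 CPM in wildtype dox retinas. The groups did not overlap, the means were 7.57 ± 1.08 and 3.98 ± 1.39 CPM (SD, n = 3 each), and the log2 change was 0.92 ± 0.22 (SE, 95% interval 0.44 to 1.40, adjusted p = 0.0175). The change in Lcn2 lost its call without PRDM13-OE dox mouse 1 (0.79, adjusted p = 0.0757), without PRDM13-OE dox mouse 2 (0.96, adjusted p = 0.0561) and without wildtype dox mouse 2 (0.77, adjusted p = 0.0602). With the crystallin covariate it was 1.71 (adjusted p = 0.0182). Neutrophil genes were at or near 0 in the retinas: Ngp, Elane and Ly6g had 0 counts in all 12 retinas, and the 10 neutrophil genes summed to 0 to 0.368 CPM. Microglia and macrophage genes summed to 101 to 113 CPM in PRDM13-OE dox retinas, 88.7 to 102 in wildtype dox, 77.6 to 98.4 in untreated PRDM13-OE and 74.0 to 84.8 in untreated wildtype retinas. Their part in the Lcn2 result was not tested. In bulk tissue, a change in the number of cells of a type and a change of RNA per cell cannot be told apart.

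C4b (ENSMUSG00000073418, chr17:34947354-34962856, minus strand), a component of the classical complement pathway, was at 24.4, 31.5 and 21.8 CPM with PRDM13 induced. Wildtype dox retinas had 24.3, 13.8 and 11.6 CPM, the first of which lay within the PRDM13-OE range. Its log2 change was 0.64 ± 0.22 (SE, 95% interval 0.16 to 1.12) and did not pass (adjusted p = 0.0833). That result turned on wildtype dox mouse 1, the retina with the most lens crystallin: without it, the log2 change in C4b was 1.02 (adjusted p = 0.00171). With the summed crystallin level of all 12 retinas as a covariate, it was 1.74 (adjusted p = 0.0747). Leaving out both high-crystallin retinas, a choice made after the values were seen, left wildtype dox mouse 3 as the only control. C4b then stood at 1.14, Cebpd at 1.24 and Lcn2 at 1.22, with no spread between control mice in that fit. The near-identical neighbor C4a had 0 to 14 counts per retina, and reads shared by the pair may have been split.

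Gfap (ENSMUSG00000020932, chr11:102778162-102791738, minus strand), the standard marker of Müller glial reactivity, read 30.5, 52.0 and 36.3 CPM in PRDM13-OE dox retinas. Wildtype dox retinas read 42.1, 40.3 and 47.4 CPM, within the PRDM13-OE range. Its log2 change was -0.13 ± 0.15 (SE, 95% interval -0.47 to 0.20, adjusted p = 0.640), an interval that ends well short of a log2 change of 1. Without PRDM13-OE dox mouse 2, the retina with the highest Gfap, it was -0.38 and passed (adjusted p = 0.0457). Serpina3n (ENSMUSG00000021091, chr12:104372988-104380588, plus strand) ran from 6.67 to 12.1 CPM and from 8.75 to 15.7 CPM in the same groups, with a log2 change of -0.34 (95% interval -0.89 to 0.21). Close paralogs of Serpina3n had at most 14 counts in any retina.

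**Figure D2:**
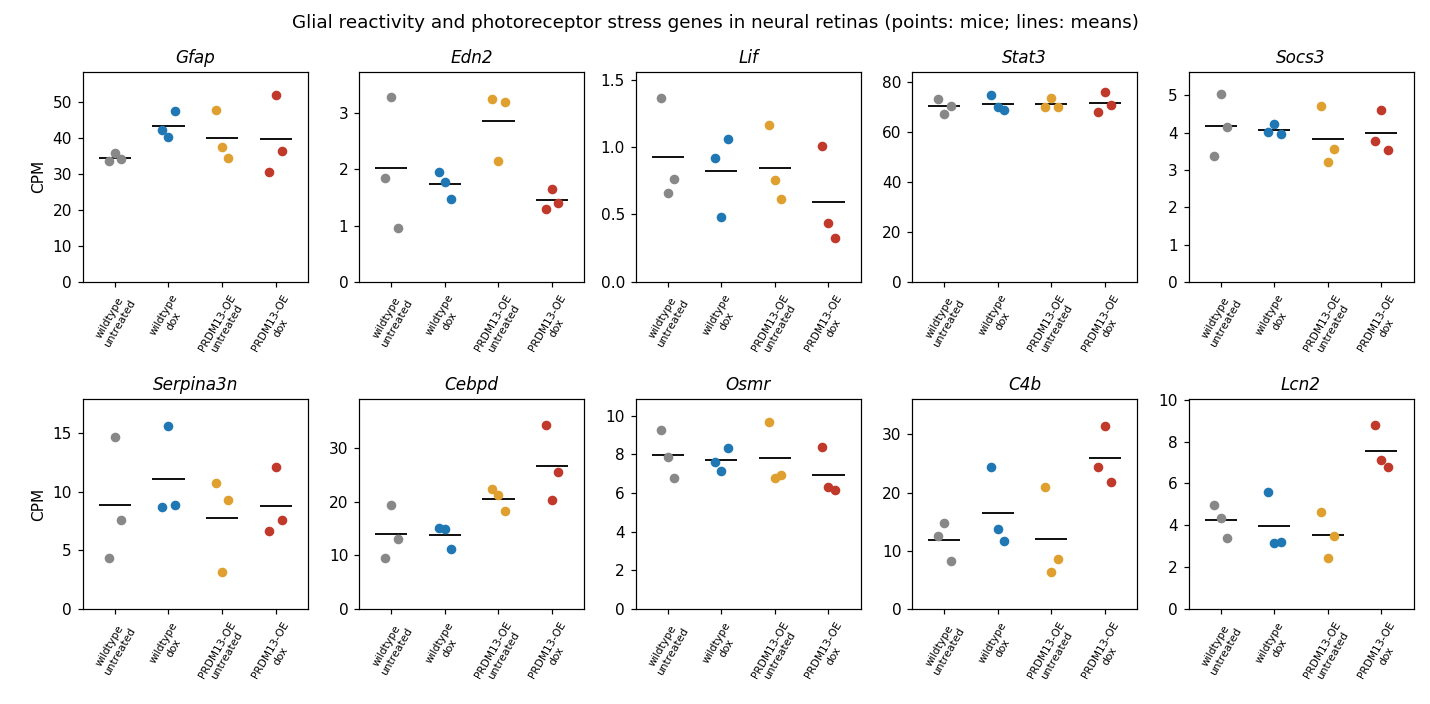
CPM of each of the 10 genes in the 12 neural retinas, by genotype and dox, with each mouse as a point and the group mean as a line; each panel has its own axis from 0. Cebpd and Lcn2 are higher in all 3 PRDM13-OE dox retinas than in all 3 wildtype dox retinas, while Stat3 lies between 67.0 and 75.9 CPM in every retina.

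Within PRDM13-OE mice, retinas with and without dox were compared, a comparison that shares the PRDM13-OE dox retinas with the previous one. Lcn2 rose 2.14-fold, and C4b and Edn2 also had no overlap between groups but did not pass. That makes 3 of 10 without overlap, against 20.8% of all genes. Lcn2 was at 4.66, 2.45 and 3.50 CPM in untreated PRDM13-OE retinas, all below the 6.77 to 8.80 CPM after dox. The log2 change was 1.09 ± 0.22 (SE, 95% interval 0.61 to 1.58, adjusted p = 0.0109). It was the only one of the 10 to pass, against 5% of all 20603 genes and 2.04% upward, and it also passed the fold threshold, as 1.04% of all genes did. Without PRDM13-OE dox mouse 1 the change in Lcn2 was 0.98 and the call was lost (adjusted p = 0.0719).

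C4b stood at 21.0, 6.41 and 8.60 CPM in untreated PRDM13-OE retinas, below all 3 of the dox group. Its log2 change was 1.11 ± 0.31 (SE, 95% interval 0.43 to 1.79, adjusted p = 0.0668). The call turned on untreated mouse 1: without that retina, C4b was at 1.78 (adjusted p = 4.2e-05). Edn2 was lower after dox in every retina, with 3.25, 2.16 and 3.19 CPM untreated against 1.30 to 1.65 CPM. Its log2 change of -0.98 ± 0.27 (SE, 95% interval -1.56 to -0.40) missed the threshold (adjusted p = 0.0575) and passed in 3 of 15 settings: with no filter on low counts (adjusted p = 0.0205), without untreated mouse 2 (0.0328) and under robust dispersions (0.0411). Cebpd had 22.4, 21.2 and 18.2 CPM without dox, overlapping the dox group, and its log2 change was 0.37 (95% interval 0.03 to 0.71, adjusted p = 0.263). Gfap differed by -0.01 (95% interval -0.38 to 0.35), with 47.9, 37.6 and 34.4 CPM untreated.

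In the retina, dox without the construct and the construct without dox moved none of the 10 past the test. For wildtype dox against wildtype untreated retinas, 0.00485% of all genes passed by edgeR's quasi-likelihood test and 0.388% by DESeq2. Of the 10, 0 passed by either tool and 1 had an unadjusted p under 0.05. That gene was Gfap, at 33.6, 35.9 and 34.2 CPM untreated against 40.3 to 47.4 CPM after dox. All 3 dox retinas were higher, a lack of overlap that 14.4% of all genes had too, with a log2 difference of 0.33 ± 0.08 (SE, 95% interval 0.16 to 0.49, adjusted p = 0.233). For untreated PRDM13-OE against untreated wildtype retinas, 0.00484% of all genes passed by edgeR and 0.0194% by DESeq2. Of the 10, 0 passed by either tool, with 1 at an unadjusted p under 0.05. Here it was Cebpd, at 18.2 to 22.4 CPM against 9.50, 19.5 and 13.1 CPM, with a log2 difference of 0.57 (95% interval 0.13 to 1.01, adjusted p = 0.995). Wildtype retinas with and without dox held similar Cebpd (log2 difference -0.02, 95% interval -0.50 to 0.46).

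Whether the dox effect itself differed between genotypes was asked with an interaction term over all 12 retinas. None of the 10 passed by edgeR's quasi-likelihood test, against 3.03% of 22538 genes, with 1 at an unadjusted p under 0.05 and 1 passing by DESeq2, as 3.74% of all genes did. Both counts were Lcn2, for which the log2 change with dox was 1.19 ± 0.35 greater in PRDM13-OE than in wildtype retinas (SE, 95% interval 0.45 to 1.93, adjusted p = 0.0887, and 0.0389 by DESeq2). In wildtype retinas, Lcn2 was at 5.58, 3.17 and 3.19 CPM with dox and 4.97, 4.37 and 3.39 CPM without. The interaction for Cebpd was 0.39 (95% interval -0.23 to 1.02), for C4b 0.62 (-0.38 to 1.62) and for Gfap -0.34 (-0.79 to 0.11).

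**Figure D3:**
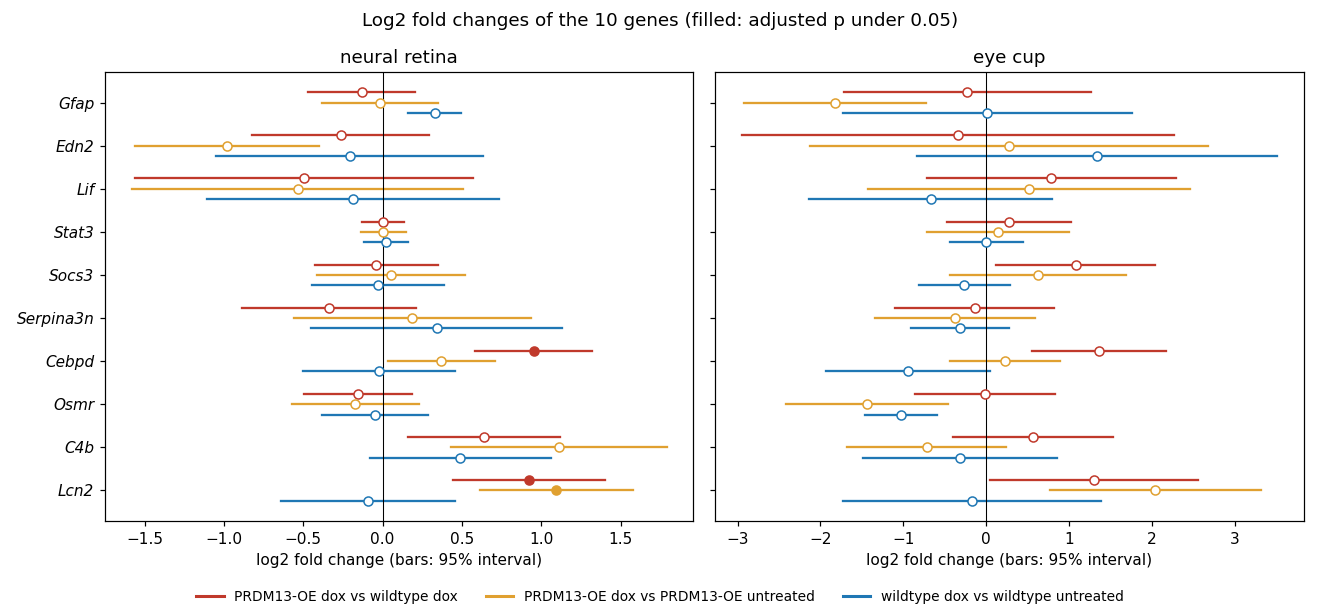
Log2 fold change (horizontal axis) of each of the 10 genes in the retina (left) and eye cup (right) for 3 comparisons that share groups, with 95% intervals from edgeR; filled points passed an adjusted p of 0.05. The filled points are in the retina only, for Cebpd and Lcn2 against wildtype dox and for Lcn2 against untreated PRDM13-OE, and the eye cup intervals are wider.

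The genes around the 10 in the same pathways were counted in PRDM13-OE dox against wildtype dox retinas, with the 10 included in lists they belong to. Over all genes 12.5% passed, 5.01% upward and 7.51% downward, the shares against which the counts of these short lists are read. Ligands and kinases gave no call: 0 of 4 tested IL-6 family ligands passed and 0 of 11 JAK and STAT genes, by edgeR's quasi-likelihood test. Of 8 receptor genes tested, 2 rose and 1 fell. Lifr, the receptor chain for LIF, rose by 0.49 on the log2 scale (adjusted p = 0.00104) and Cntfr, the receptor for CNTF, by 0.33 (adjusted p = 0.00282), while Il6st, which encodes gp130, fell by 0.22 (adjusted p = 0.0351). Of 20 Stat3 targets and feedback genes, 4 rose and 1 fell. Beside Cebpd these were the AP-1 gene Junb (log2 change 0.87), the feedback inhibitor Cish (0.44), the kinase Pim3 (0.40) and the Stat inhibitor Pias3 (-0.28). The median over the 20 was -0.02, against 0.006 over all genes. The endothelin receptor Ednrb fell by 0.72 (adjusted p = 0.0436), the only call among 8 endothelin system genes.

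Of 23 genes linked to photoreceptor injury, 4 rose and 1 fell. The immediate early gene Egr1 rose by 1.67 on the log2 scale (adjusted p = 0.0282), the growth factor Fgf2 by 0.72 (adjusted p = 0.000552) and the metallothionein Mt1 by 0.58 (adjusted p = 0.00365), with Cebpd the fourth. Ceruloplasmin (Cp) fell by 0.30. Reactive astrocyte genes were mixed: in the pan-reactive list 1 of 12 rose, Lcn2, and 3 fell, the sphingosine phosphate receptor S1pr3 (-0.75), the filament Vim (-0.55, adjusted p = 0.0182) and Cp. In the A1 list 2 of 11 fell, Fbln5 (-1.75) and Amigo2 (-0.37). In the A2 list Sphk1 rose (0.53) and B3gnt5 (-1.66) and S100a10 (-0.35) fell. Among complement genes, C1qc rose by 0.46. In the acute phase list, of 10 tested, Lcn2 rose and Cp fell. The median log2 change was 0.03 in the photoreceptor injury list, -0.14 in the pan-reactive, 0.0083 in the A1, -0.16 in the A2 and -0.09 in the acute phase list.

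Markers of the glia themselves moved beside these. Of 14 Müller glia genes, 2 rose and 7 fell, among them the water channel Aqp4 (0.63), the chaperone Clu (-0.92), Vim, Crym (-0.54) and the retinaldehyde-binding protein Rlbp1 (-0.45). Of 8 retinal astrocyte genes, Aqp4 and Slc1a2 (0.30) rose and the connexin Gja1 fell by 1.63, and the list summed to 629 to 641 CPM in PRDM13-OE dox retinas against 486 to 585 CPM in wildtype dox. Slc1a2 and Aqp4, the latter also on the Müller list, reached 6266 and 4285 counts in a retina. Gja1 reached 1322, and Pax2, Sox10 and S100b only 23, 44 and 203. The Müller list summed to 8519 to 8886 against 9234 to 9449 CPM. The part of these differences in the results for Gfap, Lcn2 and C4b was not tested. Against untreated PRDM13-OE retinas, a comparison with the same PRDM13-OE dox libraries, Lifr (0.50), Cntfr (0.37), Junb (0.73), Pias3 (-0.37), Fgf2 (0.69), Mt1 (0.54) and C1qc (0.63) also passed, as did Aqp4 (0.78), Slc1a2 (0.31), the glutamine synthetase Glul (0.25), Clu (-0.71), Crym (-0.43), Rlbp1 (-0.39) and Amigo2 (-0.30), and the hyaluronan receptor Cd44 rose by 0.86 (adjusted p = 0.000161) and Egfr by 0.38. The other genes named for these lists against wildtype dox that did not pass here were Cebpd (0.37, adjusted p = 0.263), Egr1 (1.69, adjusted p = 0.0504), Il6st, Cish, Pim3, Ednrb, Cp, S1pr3, Vim, Fbln5, Sphk1, B3gnt5, S100a10 and Gja1.

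The split of calls over all genes depended on scaling. PRDM13-OE against wildtype dox retinas gave 1030 genes up and 1545 down with TMM factors, 40% of them up, and 68.4% up with library size alone. Against untreated PRDM13-OE retinas the share was 40.8% and 58.9%. The directions of Cebpd and Lcn2 did not turn, and C4b then passed against wildtype dox (0.73, adjusted p = 0.0424) and against untreated PRDM13-OE (1.18, adjusted p = 0.0443).

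In eye cups, none of the 10 passed in any comparison by edgeR. Between PRDM13-OE and wildtype dox eye cups, Cebpd and Socs3 were higher in all 3 PRDM13-OE mice, which makes 2 of 10 genes without overlap, against 15.2% of all 21758 genes. By edgeR's quasi-likelihood test 0 of 10 passed, with 3 at an unadjusted p under 0.05 and 0.0184% of all genes passing. By DESeq2 0 of 10 passed, against 0.506% of all genes. Cebpd was at 86.9, 54.5 and 44.8 CPM against 34.0, 24.9 and 18.2 CPM, a log2 difference of 1.36 ± 0.35 (SE, 95% interval 0.55 to 2.17, adjusted p = 0.597). Socs3 was at 23.5, 13.2 and 8.53 CPM against 6.37, 8.13 and 8.20 CPM, a log2 difference of 1.08 (95% interval 0.12 to 2.04). Mouse 3 of the PRDM13-OE dox group, with the lowest values of both, decided the call: without it, Cebpd stood at 1.55 (adjusted p = 0.0281) and Socs3 at 1.36 (adjusted p = 0.0362). Its eye cup held 41579 CPM of rod genes, against 13500 and 6349 CPM in mice 1 and 2 and 27656 to 52935 CPM in wildtype dox. With the summed rod level as a covariate over all 12 eye cups, the difference in Cebpd was 0.88 and in Socs3 0.67.

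Lcn2 is also made by surface epithelia and neutrophils, so their genes are set beside it. In PRDM13-OE dox eye cups it was at 14.0, 9.04 and 5.08 CPM where epithelium genes summed to 37629, 21928 and 7148 CPM and neutrophil genes to 28.4, 4.78 and 2.34 CPM. In untreated PRDM13-OE eye cups Lcn2 was at 3.56, 1.83 and 1.44 CPM beside 27248, 1229 and 1412 CPM of epithelium genes and 12.2, 2.74 and 2.31 CPM of neutrophil genes. Every dox eye cup was thus above every untreated one, with a log2 difference of 2.04 ± 0.54 (SE, 95% interval 0.77 to 3.31, adjusted p = 0.975). Against wildtype dox eye cups, at 6.88, 2.98 and 2.35 CPM, the groups overlapped and the difference was 1.30 (95% interval 0.05 to 2.55). Epithelium genes there summed to 7781, 8013 and 15269 CPM and neutrophil genes to 4.73, 4.06 and 4.04 CPM. In untreated wildtype eye cups Lcn2 was at 1.32, 3.70 and 8.30 CPM beside 12618, 16329 and 14035 CPM of epithelium genes and 31.0, 20.9 and 6.66 CPM of neutrophil genes. Of the neutrophil genes in eye cups, Ltf, which glandular epithelia also make, reached 635 counts in a library and no other more than 41, and Elane was at 0 in all 12. The part of these tissues in the Lcn2 values was not tested.

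**Figure D4:**
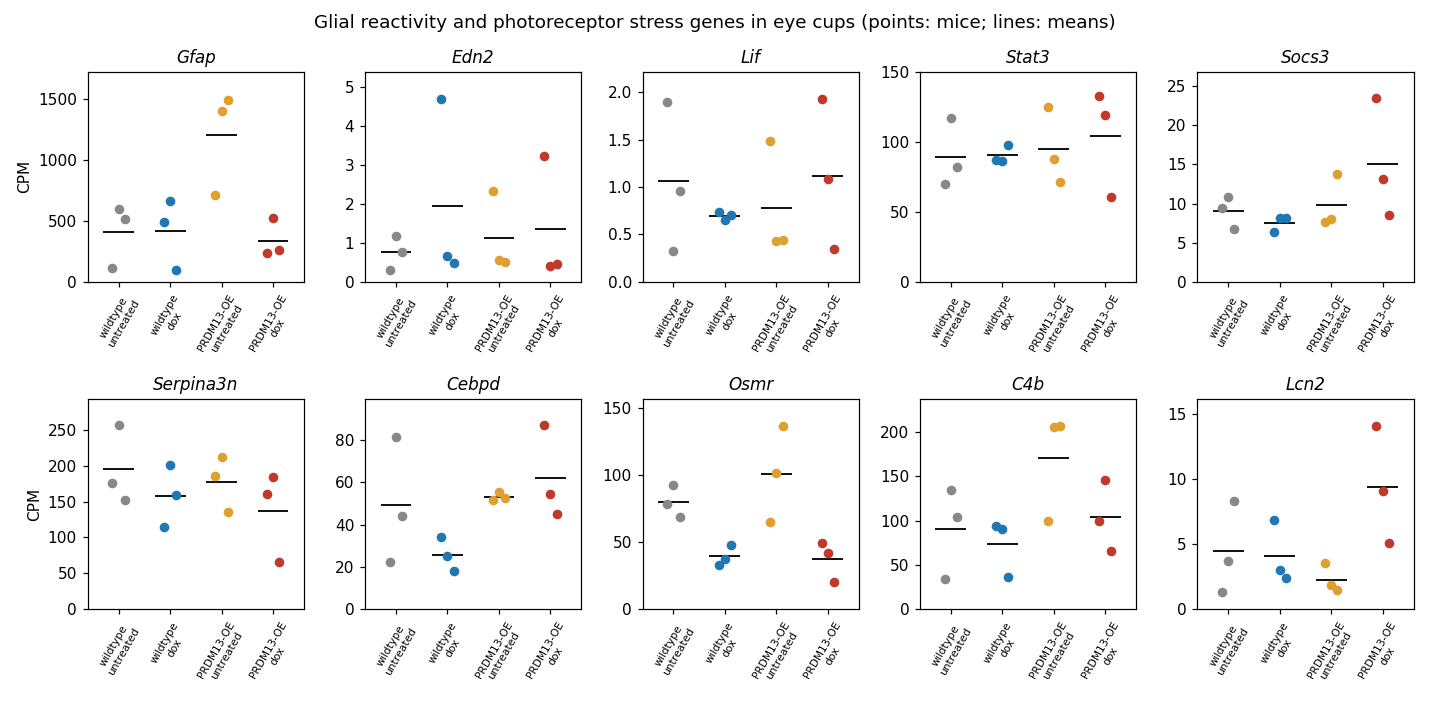
CPM of each of the 10 genes in the 12 eye cups, by genotype and dox, with each mouse as a point and the group mean as a line; each panel has its own axis from 0. Gfap spans 93.7 to 1499 CPM and Osmr is lower with dox in both genotypes.

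Osmr and Gfap were the other genes whose eye cup groups separated. Between PRDM13-OE eye cups with and without dox, 3 of 10 did not overlap (9.17% of all 21604 genes): Gfap and Osmr lower and Lcn2 higher after dox. None of the 10 passed by edgeR's quasi-likelihood test or by DESeq2, and 3 had an unadjusted p under 0.05. Over all genes 0.0139% passed by edgeR and 0.232% by DESeq2. Gfap was at 236, 521 and 261 CPM with dox and 711, 1401 and 1499 CPM without, a log2 difference of -1.83 ± 0.47 (SE, 95% interval -2.93 to -0.73). Osmr was at 49.4, 41.9 and 20.3 CPM with dox and 65.0, 101 and 137 CPM without, a log2 difference of -1.44 (95% interval -2.41 to -0.47). The untreated PRDM13-OE eye cups were the high group for Gfap.

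In wildtype eye cups Osmr was at 33.0, 37.5 and 48.2 CPM with dox and 78.2, 92.7 and 69.1 CPM without, the groups again apart. The log2 difference was -1.03 ± 0.19 (SE, 95% interval -1.47 to -0.60, adjusted p = 0.0673), and -1.02 by DESeq2 (adjusted p = 0.000413). With the summed rod level as a covariate it was -0.51. In this comparison 1 of 10 genes did not overlap, against 37.6% of 21799 genes, 0 passed by edgeR's quasi-likelihood test where 0% of all genes did, 1 had an unadjusted p under 0.05 and 1 passed by DESeq2, by which 17.4% of all genes did. Rod genes summed to 27656 to 52935 CPM in wildtype dox eye cups and to 3836 to 27032 CPM in untreated ones, while RPE genes summed to 9980 to 20732 and to 29418 to 45858 CPM and microglia and macrophage genes to 255 to 307 and to 375 to 550 CPM. In PRDM13-OE eye cups RPE genes summed to 7372 to 21838 CPM with dox and to 22335 to 55708 CPM without, again apart as Osmr was, while rod genes overlapped, as did microglia and macrophage genes (219 to 415 and 374 to 594 CPM). The part of these tissues in the Osmr values was not tested.

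Between untreated PRDM13-OE and untreated wildtype eye cups, Gfap was the 1 of 10 without overlap, against 5.83% of 21588 genes. It was at 711 to 1499 CPM against 111, 596 and 514 CPM, a log2 difference of 1.57 ± 0.61 (SE, 95% interval 0.13 to 3.01). By edgeR's quasi-likelihood test 0 of 10 and 0% of all genes passed, with 1 of the 10 at an unadjusted p under 0.05. By DESeq2 0 of 10 passed, against 0.0141% of all genes. The interaction of genotype and dox over the 12 eye cups also passed for 0 of 10 and 0% of 23837 genes, with 1 at an unadjusted p under 0.05, Lcn2 (2.22, 95% interval 0.13 to 4.31). DESeq2 passed 0 of 10 for it, against 0.0883% of all genes. The 8 retinal astrocyte genes, which are also expressed by optic nerve glia, summed to 896, 1226 and 1377 CPM in untreated PRDM13-OE eye cups and to 775, 985 and 1188 CPM in untreated wildtype ones. PRDM13-OE dox eye cups had 707, 1005 and 722 CPM and wildtype dox eye cups 722, 974 and 923 CPM. The part of attached glial tissue in the Gfap values was not tested.

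**Figure D5:**
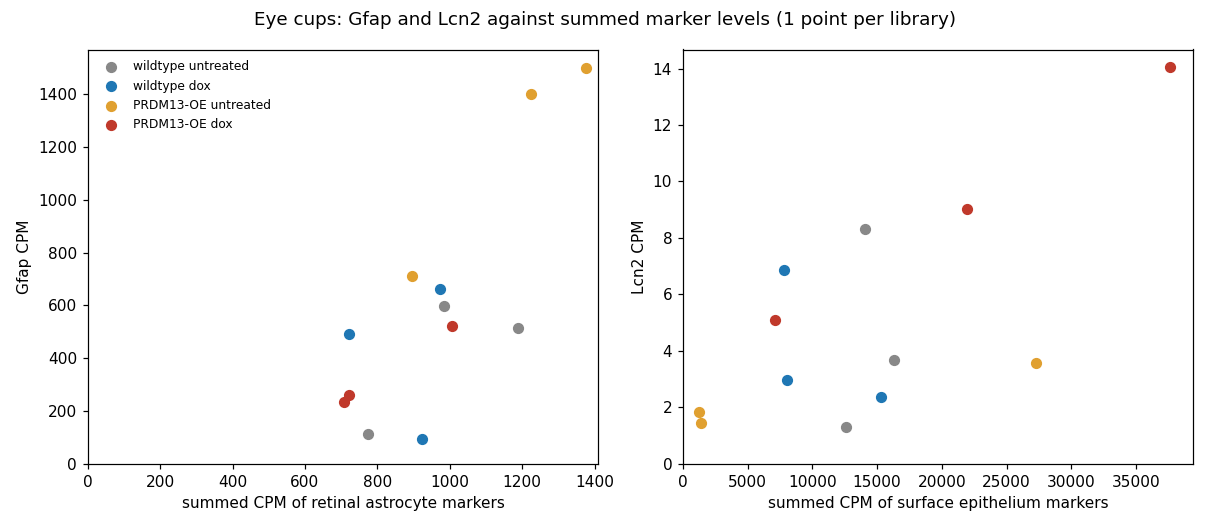
Gfap against the summed level of 8 retinal astrocyte markers (left) and Lcn2 against 8 surface epithelium markers (right), all in CPM, in the 12 eye cups, 1 point per library, colored by group. The eye cups with the highest Gfap, at 1401 and 1499 CPM, also have the highest astrocyte sums, at 1226 and 1377 CPM, but the next highest sum, 1188 CPM, goes with 514 CPM of Gfap. The eye cup with the highest Lcn2, at 14.0 CPM, has the highest epithelial sum, at 37629 CPM, but the next highest sum, 27248 CPM, goes with 3.56 CPM of Lcn2.

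Where the genes are expressed without construct or dox was compared between retina and eye cup of the 3 untreated wildtype mice. Of the 10, 7 were lower in the retina, without overlap, and 6 of them by more than 2-fold, by edgeR's quasi-likelihood test. Over all 21979 genes 70.9% did not overlap, 61.5% passed, 32.5% with lower levels in the retina, and 45.2% passed the fold threshold too, so most of the transcriptome separated these tissues. Serpina3n was 25.9-fold lower in the retina (log2 difference -4.70 ± 0.45, SE, adjusted p = 0.000109) and Gfap 13.8-fold lower (-3.78 ± 0.57, adjusted p = 0.000930). Osmr was 11.8-fold lower (-3.56 ± 0.17), C4b 8.96-fold, Cebpd 4.11-fold and Socs3 2.52-fold. Stat3 was 1.49-fold lower (-0.58, adjusted p = 0.0266). With the mouse as a block, which pairs the tissues of each animal, Stat3 was at -0.55 and lost the call (adjusted p = 0.0504), and on library size alone, which moved the median of all genes from -0.055 to 0.241, it was at -0.28 (adjusted p = 0.213). Stat3 passed in 8 of 14 settings. Edn2 (1.21, 95% interval -0.22 to 2.64), Lif (-0.46, -1.96 to 1.04) and Lcn2 (-0.31, -1.67 to 1.05) did not pass.

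Across the 12 retinas the levels of Lcn2 and C4b ran together (Pearson r = 0.872 on log2(CPM + 0.5)), as did Lif and Osmr (0.882) and Socs3 and Serpina3n (0.835). In the 12 eye cups Gfap and C4b (0.926) and Cebpd and C4b (0.720) did. These were the pairs above 0.7 of 45 in each tissue, they are descriptions over libraries that share groups and tissue content, and no test was made. The genes most like Gfap by the same measure were 1700019D03Rik (0.816), Stc2 (0.805) and Cd53 (0.803) among 14622 genes in the retina, and Gria1 (0.981), Gpr37l1 (0.979) and Itih3 (0.967) among 14293 in the eye cup.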

How the data were processed

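The authors had RNA from neural retinas and eye cups sequenced and processed by Novogene, with mapping to GRCm39. The submitters' processing notes name CASAVA and HISAT2, with versions not given in the sources used here. The deposited table holds raw read counts per gene and FPKM, which the authors computed from gene length and read count. It also holds the authors' own comparisons (fold changes and p-values), which were not used. All 24 libraries matched their labels, no per-sample column was left over, and no libraries were identical. Counts were tested with edgeR 4.0.16 (TMM, quasi-likelihood F test) in R 4.3.3, keeping genes with at least 10 counts over the libraries of a fit, with Benjamini-Hochberg adjustment over all genes tested. A gene passed at an adjusted p under 0.05, and was also counted past the study's fold threshold at a log2 change past 1. Only the compared groups entered each fit, except for the interaction over 12 libraries. Within a tissue each library was 1 mouse, so p-values there measure the spread between mice. The labels tie retina and eye cup to the same numbered mouse, so the tissues are paired by animal (same-number correlations 0.06 to 0.11). The main fit between tissues left this pairing out, and the mouse as a block took it in. The scripts were tested on simulated counts. DESeq2 1.42.0, other filters, scalings, covariates, the mouse number as a block and leaving out each library were alternatives. Named genes outside the 10 were those of the pathway and marker lists that passed, at most the 5 with the largest change per list and comparison, and the 3 genes most like Gfap in each tissue, among those with at least 10 counts in every library. The 10 genes and all lists were chosen with earlier results of these data known. RefSeq promoter windows for Cebpd and C4b were not used here. A result of the complement list is not reported here.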

Additional observations from a re-analysis of the deposited data

How the results depend on the processing

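Over 1640 recalculated values for the 10 genes, 1464 kept their direction and their side of the threshold, 12 lost and 34 gained a call, and 130 changed sign without a call, and no called value reversed. The number of the 10 past both thresholds moved in 5 comparisons, and where no reason is given the cause was not tested. In PRDM13-OE against wildtype dox retinas it was 0, and 2 at any fold by definition of that rule. It was 2 on library size alone and 1 (Lcn2, 1.71, adjusted p = 0.0182) with the crystallin covariate. With 1 library left out it was 0 to 3: 3 without wildtype dox mouse 1 and 1 each without wildtype dox mouse 2 and PRDM13-OE dox mouse 2. No count is given without both high-crystallin wildtype retinas (chosen after seeing the data), a fit that left wildtype dox mouse 3 as the only control. In PRDM13-OE retinas with against without dox it was 1, and 2 on library size, with no filter, the crystallin covariate or the replicate block, and 0 to 2 with 1 library left out (0 without dox mouse 1, 2 without untreated mouse 1). The retinal interaction went from 0 to 1 with DESeq2, no filter, robust dispersions, the crystallin covariate and the replicate block, and 0 to 1 with 1 library left out (1 without untreated PRDM13-OE mouse 1 or wildtype dox mouse 1). Between dox eye cups it was 0, and 0 to 2 with 1 library left out (2 without PRDM13-OE dox mouse 3). In wildtype eye cups with against without dox it was 0, 1 with DESeq2 or no filter, and 0 to 2 with 1 library left out (1 without dox mouse 3, 2 without untreated mouse 1). The log2 change in dox retinas ran from 0.73 to 1.24 for Cebpd, from 0.78 to 1.71 for Lcn2 and from 0.45 to 1.74 for C4b. These ranges cover all settings, the fit with the only control included. With no filter on low counts, Cebpd (0.37, adjusted p = 0.00617) and C4b (1.11, adjusted p = 7.41e-20) also passed in PRDM13-OE retinas with against without dox, as did 5.78% of all genes. The main fit gave C4b an adjusted p of 0.0668 at the same log2 change. C4b also passed against wildtype dox (0.64, adjusted p = 8.11e-10, with 12.1% of all genes) and in the retinal interaction (0.63, adjusted p = 0.00671, with 4.64% of all genes). Likewise Gfap (0.32, adjusted p = 0.00610) and C4b (0.49, adjusted p = 0.00579) passed for wildtype dox against untreated retinas, where 2.07% of all genes then passed. Cebpd (0.57, adjusted p = 0.00379) passed for untreated PRDM13-OE against wildtype, where 0.364% of all genes did. Lif and Edn2 rest on the fewest reads, 5 to 43 and 7 to 83 counts per library.

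Within a tissue, equal mouse numbers mark different animals: same-number correlations ran from -0.48 to 0.55 over 8 comparisons, and every library lay closest to its own number in 1 of them. With the replicate block C4b passed in PRDM13-OE dox retinas against wildtype dox (0.68, adjusted p = 0.0319) and against untreated PRDM13-OE (1.23, adjusted p = 0.0280), and the Lcn2 interaction passed (1.23, adjusted p = 0.0188). Beside these and Stat3 between tissues, the block changed no call.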
